A study of Mus musculus with 6 samples.

Results

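The Dmpk and Dmwd gene neighbourhood is a run of 8 protein-coding genes on mouse chromosome 7, in the order Sympk, Dmwd, Dmpk, Six5, Fbxo46, Qpctl, Snrpd2 and Eml2. The genes were chosen by symbol as the surroundings of Dmpk, and all 8 of the 8 listed were among the 12161 genes with values. The choice was made because Dmpk and Dmwd stood out in the comparison described here, so their differences are given as a description, with no test. The same holds for the other 6 genes, since their values come from the same comparison.

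Messenger RNA was sequenced from LSK cells, a bone marrow fraction without lineage markers and with Sca1 and Kit, which holds blood stem cells and early progenitors. There were 3 libraries of cells with the retrovirus MIG-Hhex, labelled genotype Hhex, and 3 libraries of cells with the empty vector MIG, labelled wild-type. All cells came from C57BL/6 mice of unstated age, were cultured for 2 days after transduction with 10 ng/mL each of the interleukins IL-3 and IL-6 and 50 ng/mL each of Flt3 ligand and stem cell factor, and were sorted for the GFP of the vector before RNA extraction. Replicates are named WT3, WT691 and WT703 in both groups, and by their labels the pair named WT3 was run on flow cell C3RJFACXX and the other 4 libraries on C5LWPANXX. The vector drives Hhex from outside its own locus, and its reads are not separated from those of the cell's own Hhex.

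Dmpk encodes a serine/threonine kinase of muscle and heart. In human, an expanded CTG repeat at the end of its gene causes myotonic dystrophy, and the repeat RNA traps splicing factors of the Mbnl family. Dmwd, just before it on the same strand, encodes a WD-repeat protein related to Wdr20. Six5, just after it, encodes a homeobox transcription factor of the sine oculis family. Sympk encodes symplekin, a scaffold of the machinery that cleaves and polyadenylates messenger RNA, and Snrpd2 a core protein of the spliceosomal small nuclear particles. Fbxo46 encodes an F-box protein, Qpctl a glutaminyl cyclase of the Golgi and Eml2 a microtubule-binding protein.

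The 8 genes span 182 kb of the build GRCm38, from 19024377 at the start of Sympk to 19206482 at the end of Eml2. All are on the plus strand except Qpctl. Dmwd lies at chr7:19076112-19082778, Dmpk at chr7:19083646-19093821 and Six5 at chr7:19094544-19098549. Dmwd, Dmpk and Six5 are packed head to tail, with 867 bases between Dmwd and Dmpk and 722 bases between Dmpk and Six5. The distance is 21.5 kb from Sympk to Dmwd and 21.3 kb from Six5 to Fbxo46, so the trio stands apart from the rest of the run. Fbxo46 and Qpctl are separated by 1.96 kb in RefSeq but overlap at their ends, on opposite strands, in GENCODE. Whether reads were assigned by strand is not given in the sources used here, so these 2 values may share reads. Rsph6a, Bhmg1 and Gipr, which lie between members, and Mir3100, which lies at chr7:19086828-19086892 within Dmpk and outside its annotated exons, were not analysed here.

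The sequences before the starts of Dmwd, Dmpk and Six5 are shown because these neighbours on a single strand differed in how far they moved. They are the 250 bases before the start site in the RefSeq table of GRCm38.p6, on the plus strand, at chr7:19075950-19076199 for Dmwd, chr7:19083608-19083857 for Dmpk and chr7:19094294-19094543 for Six5. Capitals mark 2 motifs searched on both strands, ATTA, the core of homeobox sites, and GGGCGG, the GC box. RefSeq lists further transcripts that start earlier, so the last 212 bases of the Dmpk stretch and the last 88 of the Dmwd stretch lie within the widest gene model.
Dmwd: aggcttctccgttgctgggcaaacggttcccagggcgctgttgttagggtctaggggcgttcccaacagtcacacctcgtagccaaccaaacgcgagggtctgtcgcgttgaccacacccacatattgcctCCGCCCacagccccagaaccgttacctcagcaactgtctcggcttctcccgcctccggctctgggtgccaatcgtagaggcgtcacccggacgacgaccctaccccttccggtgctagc
Dmpk: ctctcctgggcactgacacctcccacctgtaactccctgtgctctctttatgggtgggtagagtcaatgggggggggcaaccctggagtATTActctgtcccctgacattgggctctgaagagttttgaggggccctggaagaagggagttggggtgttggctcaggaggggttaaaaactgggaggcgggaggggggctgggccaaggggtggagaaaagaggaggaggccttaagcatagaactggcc
Six5: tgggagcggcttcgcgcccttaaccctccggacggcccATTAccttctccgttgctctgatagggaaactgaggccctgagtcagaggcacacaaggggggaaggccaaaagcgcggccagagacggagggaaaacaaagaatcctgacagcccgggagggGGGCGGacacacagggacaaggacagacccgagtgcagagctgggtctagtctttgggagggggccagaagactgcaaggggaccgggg

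The Dmpk stretch held 1 CpG dinucleotide, against 20 in the Dmwd stretch, 13 in the Six5 stretch and a median of 6 over all 32851 promoters of the table. Fewer CpGs than in the Dmpk stretch were found in 7.87% of promoters. The Dmpk stretch had 1 ATTA and 0 GGGCGG, the Dmwd stretch 0 and 1, and the Six5 stretch 1 of each. ATTA was found in 54.9% of all promoters and GGGCGG in 32.7%. The longer AATTAA, the type of site preferred by Hhex, which contains ATTA, was in none of the 3 stretches and in 10.4% of all promoters. GAGGAA, an Ets type site, and TTNCNNAA, a C/EBP type site, were also in none of the 3, against 23.3% and 36.8% of all promoters. GC content was 58.4% for Dmpk, 62.4% for Dmwd and 62.8% for Six5, against a median of 52.4%. Of the 8 genes, 7 had a promoter in the table.

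The values of the deposited table are on a log2 scale, run from −7.65 to 12.98 and have library medians between 3.56 and 3.6. Whether they are per unit of gene length is not given in the labels and was looked for in the lowest values. In the MIG library of replicate WT703, 12 genes with values from −7.52 to −2.76 came to within 0.05 of −4.17 once the log2 of their exon length in kilobases was added, although the lowest gene of that library then stood at −4.28. In that library 17 genes lay in the next 0.5 above. In the MIG library of replicate WT691, 6 genes came to within 0.05 of −4.16 and 13 lay in the next 0.5 above. Each of these levels was the median of the lowest such values of its own library, so some closeness to it was built in. The other libraries were not looked at in this way. Levels of different genes are set side by side below as if they were per length, a reading that these values do not settle. The sequencing depth behind them is unknown. With bulk RNA, fewer cells of a type and less RNA per cell cannot be told apart.

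Hhex itself had log2 values of 7.61, 9.34 and 9.06 in the MIG-Hhex libraries of replicates WT3, WT691 and WT703, and of 5.18, 5.05 and 5.13 in the MIG libraries. All 9 markers of LSK cells and early progenitors on the list were measured, among them Kit, Ly6a and Cd34. Ly6a differed by replicate, with log2 values of 3.55, 6.21 and 5.89 in the MIG-Hhex libraries of WT3, WT691 and WT703. In the MIG libraries it had 3.18, 6.25 and 6.08. Kit lay between 4.44 and 4.86 in all libraries. The source of the low Ly6a values in replicate WT3 was not tested. With the limma test, 1 of the 9 was lower with MIG-Hhex (Meis1, a homeobox factor of stem cells), 0 were higher and 8 missed the threshold. Meis1 had a log2 difference of −0.79 (SE 0.13, limma adjusted p = 0.0107) and missed the threshold without replicate WT3 (0.055), without its MIG library (0.0584) and without its MIG-Hhex library (0.0564). With the replicate number as a block 3 of the 9 were lower, as Flt3 (−0.47, limma adjusted p = 0.0241), a cytokine receptor, and Cd48 (−0.34, limma adjusted p = 0.00896), a surface protein of progenitors, also passed. Their summed level on the linear scale (2 to the power of the deposited value) was 344 to 447 in MIG-Hhex libraries and 422 to 507 in MIG libraries. Of the markers of mature lineages, Itgam, an integrin of myeloid cells, had a log2 difference of −0.31 (SE 0.11, limma adjusted p = 0.104). Of 15 muscle markers, 3 were measured, Ryr1, Acta2 and Tagln, with a sum of 1.72 to 3.50 in MIG-Hhex libraries and 2.98 to 5.22 in MIG libraries. Of these 3, 0 rose, and Acta2, smooth muscle actin, was lower with MIG-Hhex (log2 difference −1.49, SE 0.28, limma adjusted p = 0.0164). Acta2 missed the threshold without replicate WT703 (0.0777), without its MIG library (0.0507) and without the MIG-Hhex library of WT691 (0.0627), and with 1 added its log2 difference was −0.74. The other 12 muscle markers, Ckm and Des among them, were not analysed here. The part of these markers in the results below was not tested.

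Dmpk had log2 values of 1.42, 1.66 and 1.53 in the MIG-Hhex libraries of replicates WT3, WT691 and WT703, against −1.81, −3.22 and −3.42 in the MIG libraries. The 3 MIG-Hhex libraries lay within 0.24 of each other and every one stood above all MIG libraries, among which replicate WT3 was the highest. The mean was 1.54 ± 0.12 with MIG-Hhex and −2.81 ± 0.88 with MIG (SD, n = 3 each), a log2 difference of 4.35 (SE 0.38, limma with a flow cell term), or 20.4-fold. In MIG-Hhex libraries, between 23.1% and 24.5% of all genes had a lower value than Dmpk, and in MIG libraries between 1.07% and 4.24% did. The MIG values are thus near the lower end of the table, where a constant added ahead of the log has most weight. With 1 added on the linear scale the log2 difference was 1.75.

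Dmwd had log2 values of 4.98, 4.94 and 5.08 in the MIG-Hhex libraries of replicates WT3, WT691 and WT703, against 2.58, 1.77 and 2.00 in the MIG libraries. The groups did not overlap, and replicate WT3 was again the highest of the MIG libraries. The mean was 5.0 ± 0.07 with MIG-Hhex and 2.12 ± 0.41 with MIG (SD, n = 3 each), a log2 difference of 2.88 (SE 0.16), or 7.37-fold. Unlike Dmpk, Dmwd was at a level in both groups at which the offset matters less, and with 1 added its log2 difference was 2.62. Between 73.2% and 76.1% of genes were lower than Dmwd in MIG-Hhex libraries, and between 25.4% and 36% in MIG libraries. Ordered by signed log2 difference from the largest rise down, Dmpk was number 5 and Dmwd number 47 of the 12161 genes. These places are on the deposited scale and come from the comparison for which both genes were chosen.

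**Figure D1:**
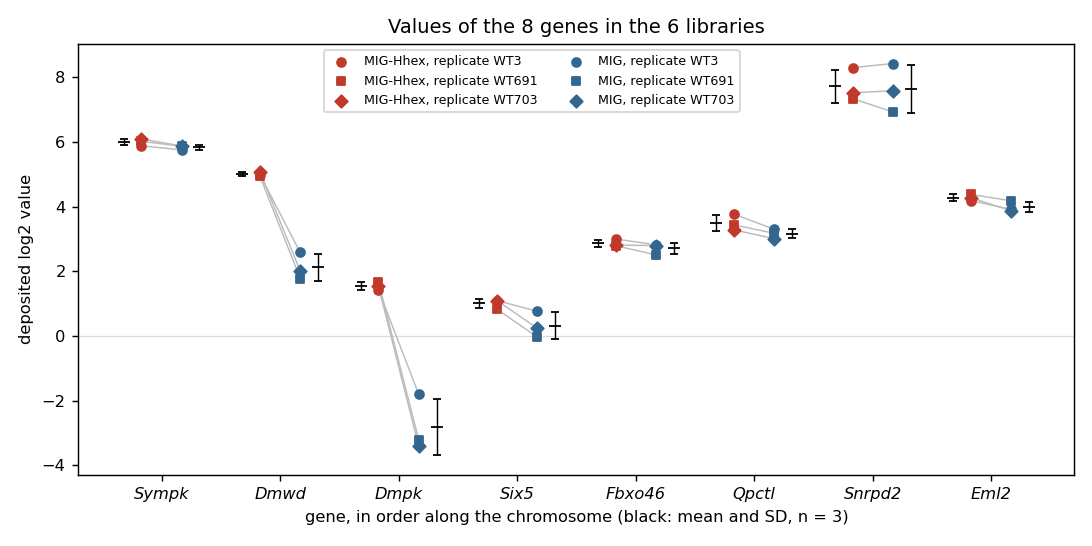
Deposited log2 value (vertical axis) of each of the 8 genes in the 6 libraries, with MIG-Hhex in red and MIG in blue, lines joining libraries of the same replicate number and black marks for mean and SD. For Dmwd and Dmpk the 3 red points lie together and far above the blue ones, while the means of the other 6 genes differ by 0.08 to 0.68 between the groups.

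Six5 had log2 values of 1.09, 0.82 and 1.09 in the MIG-Hhex libraries of replicates WT3, WT691 and WT703, against 0.76, −0.03 and 0.24 in the MIG libraries. The lowest MIG-Hhex library stood only 0.06 above the highest MIG library, which was that of replicate WT3. The mean was 1.0 ± 0.15 with MIG-Hhex and 0.32 ± 0.41 with MIG (SD, n = 3 each), a log2 difference of 0.68 (SE 0.19), or 1.60-fold. With 1 added on the linear scale it was 0.41. It is the nearest gene after Dmpk, and its difference was the largest of the 6 neighbours of Dmwd and Dmpk.

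Sympk, the gene before Dmwd among the 8, had log2 values of 5.88, 6.01 and 6.09 in the MIG-Hhex libraries and 5.75, 5.87 and 5.87 in the MIG libraries, a log2 difference of 0.16 (SE 0.05). Its groups were separated by 0.01, less than the SD of 0.11 among MIG-Hhex libraries. Eml2 had log2 values of 4.18, 4.38 and 4.27 with MIG-Hhex and 3.91, 4.18 and 3.87 with MIG, a log2 difference of 0.29 (SE 0.09). Its groups lay edge to edge, since the highest MIG library, replicate WT691, was within 0.01 of the lowest MIG-Hhex library, replicate WT3.

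Qpctl had log2 values of 3.76, 3.44 and 3.28 with MIG-Hhex and 3.30, 3.17 and 3.01 with MIG, a log2 difference of 0.33 (SE 0.09). Its groups overlapped, although each MIG-Hhex library was above the MIG library of its own replicate number. Fbxo46 had log2 values of 3.00, 2.79 and 2.81 with MIG-Hhex and 2.82, 2.51 and 2.79 with MIG, a log2 difference of 0.16 (SE 0.10). Its groups overlapped as well, and its difference was 0.08 without the MIG library of replicate WT691, 0.10 without both libraries of that replicate and 0.24 without the MIG library of replicate WT703.

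Snrpd2 had log2 values of 8.30, 7.34 and 7.52 with MIG-Hhex and 8.42, 6.93 and 7.58 with MIG, a log2 difference of 0.08 (SE 0.17). It was the most abundant of the 8 genes in every library, and its libraries were set apart by replicate number more than by vector. Its difference was below 0 without replicate WT691 (−0.09), without the MIG library of that replicate (−0.14) and without the MIG-Hhex library of replicate WT703 (−0.01). On average its replicate WT3 libraries stood 1.02 above the other 4, a gap of 0.87 with MIG-Hhex and 1.17 with MIG. Replicate WT3 is also the only replicate of its flow cell, so the replicate and the flow cell cannot be told apart.

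The 6 neighbours had log2 differences between 0.08 and 0.68, with a median of 0.23, against a median of −0.02 over all genes. All 6 were above 0, as were 46.1% of all genes, and 16 of their 18 differences within replicate numbers were above 0. With limma and an adjusted p under 0.05, 9.44% of all genes were higher and 8.52% lower in MIG-Hhex cells, 18.0% in all. Of the 8 genes, 2 passed that threshold, Dmpk and Dmwd, the 2 for which the set was chosen. Groups did not overlap, with MIG-Hhex higher, for 5 of the 8, namely Dmpk, Dmwd, Six5, Sympk and Eml2, against 10.2% of all genes. Dmpk and Dmwd are in this count through the choice of the set. Of the 6 neighbours 3 did not overlap, Six5, Sympk and Eml2, by margins of only 0.06, 0.01 and 0.01. MIG-Hhex was higher in all 3 replicate pairs for 7 of the 8, Snrpd2 being the exception, against 27.5% of all genes. That count too holds the 2 chosen genes.

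For Dmwd, Dmpk and Six5, the size of the difference varied with the replicate. The difference of Dmpk was 3.23 in replicate WT3, 4.88 in replicate WT691 and 4.95 in replicate WT703. That of Dmwd was 2.40, 3.17 and 3.07 in the same order, that of Six5 0.33, 0.86 and 0.86, and that of Hhex 2.43, 4.29 and 3.93. All 4 genes thus had their smallest difference in replicate WT3. For Dmpk, Dmwd and Six5 the gap lay mainly among the MIG libraries, where replicate WT3 exceeded the mean of the other 2 by 1.51, 0.69 and 0.66. Among MIG-Hhex libraries the same gap was −0.17, −0.02 and 0.13. For Hhex the gap lay instead among the MIG-Hhex libraries, where replicate WT3 had 7.61 against 9.34 and 9.06. Its MIG libraries had 5.18, 5.05 and 5.13. Within flow cell C5LWPANXX alone, the log2 difference was 4.91 for Dmpk, 3.12 for Dmwd and 0.86 for Six5, and C3RJFACXX has only the WT3 pair. In each replicate number Dmpk exceeded the largest neighbour's difference by 2.77 to 4.09 and Dmwd by 1.94 to 2.31.

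**Figure D2:**
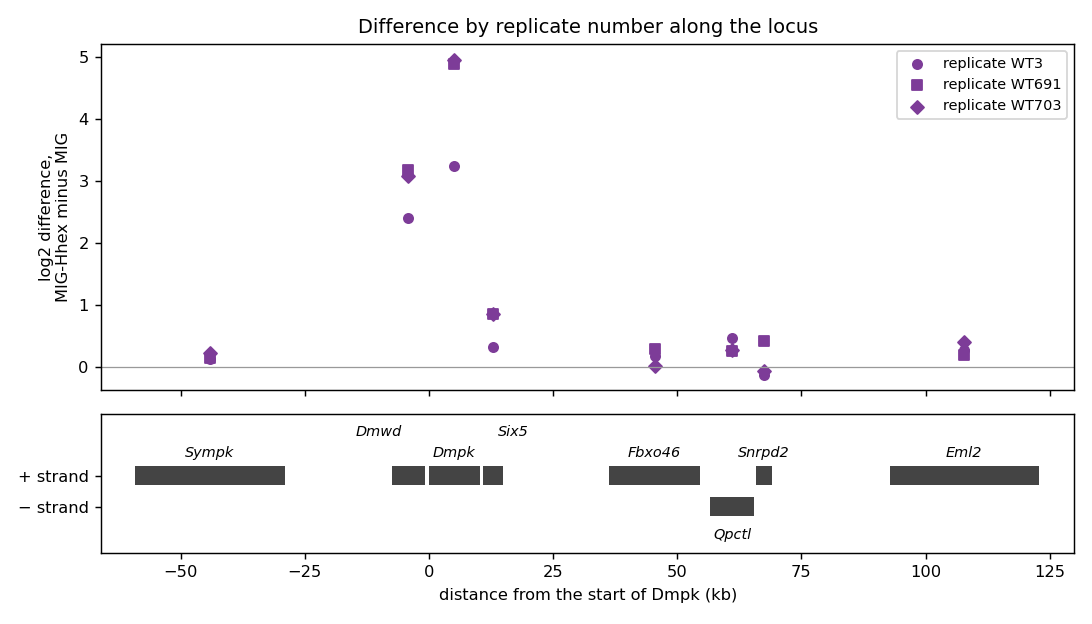
Log2 difference, MIG-Hhex minus MIG, within each replicate number (upper panel) above a map of the 8 genes drawn to scale by strand (lower panel), with distance from the start of Dmpk in kb. Points for Dmwd and Dmpk reach 2.40 to 4.95, those of Six5 0.33 to 0.86, and those of the genes farther out lie between −0.12 and 0.47.

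The order of levels along the 8 genes changed with the 2 genes that moved. From high to low, the mean levels in MIG-Hhex cells were in the order Snrpd2 (7.72), Sympk (6.00), Dmwd (5.0), Eml2 (4.28), Qpctl (3.49), Fbxo46 (2.87), Dmpk (1.54) and Six5 (1.0), and no gene's 3 libraries overlapped those of the next. In MIG cells the order was Snrpd2 (7.65), Sympk (5.83), Eml2 (3.99), Qpctl (3.16), Fbxo46 (2.71), Dmwd (2.12), Six5 (0.32) and Dmpk (−2.81), where the libraries of Fbxo46 and Dmwd overlapped. Dmwd exceeded Dmpk by 3.56, 3.28 and 3.55 on the log2 scale in the MIG-Hhex libraries of replicates WT3, WT691 and WT703, and by 4.39, 4.99 and 5.42 in the MIG libraries. This gap was narrower in MIG-Hhex libraries on the deposited scale, but that direction turned with 1 added before the log, where the log2 difference was 1.75 for Dmpk and 2.62 for Dmwd. Six5 was below Dmpk in every MIG-Hhex library, by 0.33 to 0.84, and above it in every MIG library, by 2.57 to 3.65.

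A wider view took the measured genes whose start lay within 500 kb of the start of Dmpk, the 8 left out. Of 20 such genes 4 rose and 0 fell at a limma adjusted p under 0.05, and 16 missed that threshold, against 9.44% higher and 8.52% lower among all genes, and their median log2 difference was 0.13. Pglyrp1, a secreted peptidoglycan recognition protein of neutrophil granules, whose start lay at −199 kb from that of Dmpk, had log2 values of 5.92, 5.91 and 5.59 with MIG-Hhex and 5.12, 5.04 and 5.08 with MIG (log2 difference 0.73, SE 0.09, limma adjusted p = 0.0044). Vasp, which promotes actin filament growth, 188 kb after it, had 6.92, 6.74 and 6.71 with MIG-Hhex and 6.65, 6.21 and 6.25 with MIG (log2 difference 0.42, SE 0.06, limma adjusted p = 0.00815). Klc3, a kinesin light chain, 321 kb after it, had −0.28, −0.25 and −0.09 with MIG-Hhex and −1.79, −2.16 and −2.79 with MIG (log2 difference 2.04, SE 0.33, limma adjusted p = 0.0104). Like Dmpk it is near the lower end of the table, and with 1 added its log2 difference was 0.62. Trappc6a, a subunit of a vesicle tethering complex, 425 kb after it, rose by 0.24 (SE 0.06, limma adjusted p = 0.0394). In each of these 4 genes every MIG-Hhex library was above the MIG library of its replicate number.

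Of these 4 calls, that of Pglyrp1 stood in all 9 leave-one-out runs, which dropped a replicate or 1 of its libraries (highest limma adjusted p 0.0308). Klc3 missed the threshold without replicate WT703 (0.0696) and without the MIG-Hhex library of replicate WT691 (0.0504), and Vasp without replicate WT703 (0.0738). Trappc6a missed it in all 9 (limma adjusted p up to 0.159). The count of 4 was thus 1 without replicate WT703, 2 without the MIG-Hhex library of replicate WT691 and 3 in the other runs. Within 100 kb of Dmpk only 2 other genes were measured, and 0 of them passed the test. Within 1000 kb 30 were measured, and 5 of them differed by a log2 of 1 or more. The largest of these differences was 4.54, above the 4.35 of Dmpk. The measured genes nearest to the 8 on either side were Irf2bp1, a transcriptional corepressor, with a log2 difference of 0.11 (SE 0.07, limma adjusted p = 0.30), and Gpr4, a proton-sensing receptor, with 1.45 (SE 1.2, limma adjusted p = 0.434). Gpr4 had −5.69, −1.61 and −1.06 with MIG-Hhex and −3.74, −3.28 and −5.69 with MIG, so its libraries were widely scattered near the lower end of the table.

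**Figure D3:**
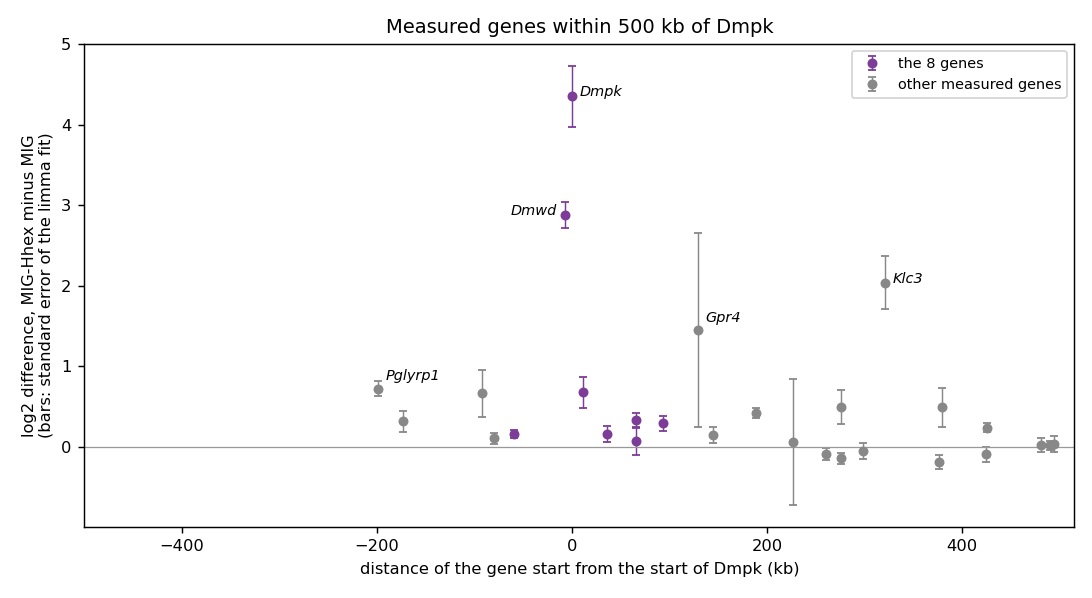
Log2 difference, MIG-Hhex minus MIG, with the standard error of the limma fit, for each measured gene within 500 kb of Dmpk by the distance of its start in kb, the 8 genes in purple and the other 20 in grey. Dmpk and Dmwd stand at 4.35 and 2.88, Klc3 at 2.04, and most genes between them and on either side lie close to 0.

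To place the pair of Dmwd and Dmpk, all measured genes that follow each other on a strand with at most 5 kb between them were paired. Dmwd and Dmpk were chosen for their differences in this comparison, so a high place of their pair was largely fixed in advance and is a description only. Of 1329 such pairs, 83 had at least 1 gene with a log2 difference of 1 or more and 12 had both, while 19 had at least 1 gene at 2 or more and 3 had both. Single genes reached 1 in 4.06% and 2 in 1.0% of all cases. The 3 pairs with both genes at 2 or more were Dmwd with Dmpk, C1qa with C1qc and C1qc with C1qb, the last 2 of them from the cluster of complement C1q subunits. Ordered by the smaller of the 2 differences, Dmwd with Dmpk came first of the 1329. It also came first of 644 pairs at most 2 kb apart, and took rank 3 of 3228 pairs at most 20 kb apart. This order is that of the deposited scale, on which the MIG values of Dmpk are near the lower end. With 1 added before the log the difference of Dmpk was 1.75, below 2, and the pairs were not ordered again. Over the 1329 pairs the differences of the upstream and the downstream gene had a Pearson correlation of 0.30 and a Spearman correlation of 0.25, a description across pairs that share the 6 libraries and in part share genes. Dmpk with Six5, at 4.35 and 0.68, is a close pair in which the 2 genes differed by far more.

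**Figure D4:**
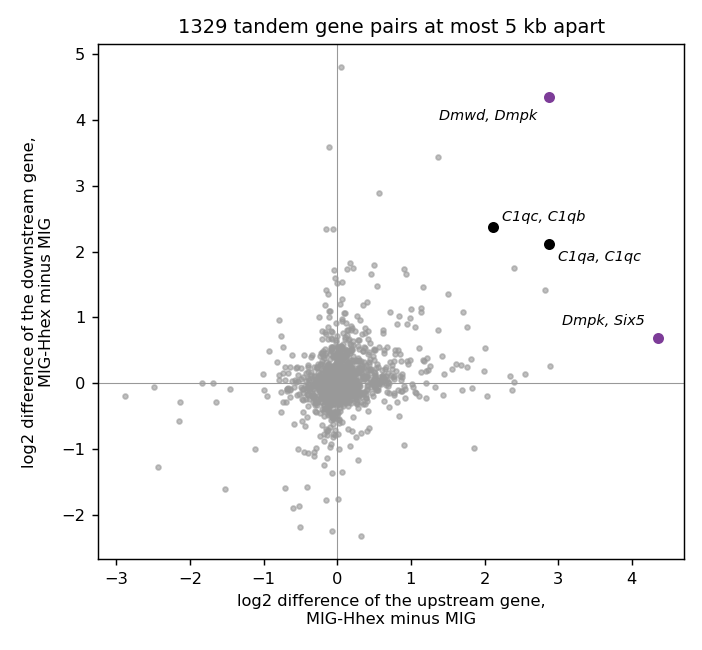
Log2 difference, MIG-Hhex minus MIG, of the upstream gene (horizontal axis) and the downstream gene (vertical axis) in 1329 pairs of measured genes that follow each other on a strand at most 5 kb apart. Most pairs lie near 0, and on the deposited scale Dmwd with Dmpk is at 2.88 and 4.35, beyond the C1q pairs.

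Over the 6 libraries, the genes with a pattern most like that of Dmpk by Pearson correlation were Il1rl1, Sept9, Alox5, Dmwd and Parp11, with correlations from 0.994 to 0.996. Those most like Dmwd were Pycr1, Aldh2, Dmpk, Kank2 and Cpne2, from 0.993 to 0.999. Dmwd thus had rank 4 for Dmpk and Dmpk rank 3 for Dmwd among all genes. Both were chosen for their rise in this comparison, so high ranks for each other were largely fixed in advance and are a description only. Beside Dmwd, the genes most like Dmpk had log2 differences of 0.71 (Il1rl1), 0.15 (Sept9), 1.01 (Alox5) and 0.32 (Parp11). Six5 ranked 529th for Dmpk (0.89), and the other 5 neighbours between 1249th and 4040th (0.75 to 0.21). Hhex ranked 234th for Dmpk (0.94) and 189th for Dmwd (0.95). These correlations describe likeness over 6 libraries that fall into the 2 groups.

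The relatives and known partners of the 8 genes were taken by role, as 9 lists with 68 measured genes of 82 listed. Of these 68, 1 rose and 7 fell, against 9.44% higher and 8.52% lower among all genes. With the replicate number as a block, 2 were higher and 11 lower, and in the runs that left out a replicate or 1 of its libraries 1 to 2 were higher and 1 to 5 lower.

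Among 10 kinases related to Dmpk, which share its domain type and include Rock1 and Rock2 and the Cdc42-binding kinases, 0 rose and 1 fell, with a median log2 difference of 0.04. The one that fell was Lats2, a kinase of the Hippo pathway. It had log2 values of 0.19, −0.54 and −0.61 with MIG-Hhex and 1.95, 2.06 and 2.00 with MIG (log2 difference −2.32, SE 0.21, limma adjusted p = 0.00189), with no overlap between groups. With 1 added its log2 difference was −1.47. Of 6 measured genes for the RNA-binding proteins of myotonic dystrophy, 0 passed the test, and their median was −0.08. With the replicate number as a block Mbnl2, a relative of Mbnl1, was higher (log2 difference 0.34, limma adjusted p = 0.0128). Mbnl1, the splicing factor trapped by the human repeat RNA, had log2 values of 6.46, 6.44 and 6.47 with MIG-Hhex and 6.60, 6.51 and 6.57 with MIG.

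Of 5 measured relatives and partners of Dmwd, 0 rose and 2 fell, with a median of 0.09. Usp12 and Usp1, deubiquitinases that work with WD-repeat partners, were lower by small amounts, with log2 differences of −0.31 (SE 0.08, limma adjusted p = 0.0496) and −0.18 (SE 0.05, limma adjusted p = 0.0386). Wdr20, the closest named relative of Dmwd on the list, had a log2 difference of 0.09 (SE 0.11).

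Of 6 measured genes of the network of Eya and Dach proteins and relatives of Six5, 1 rose and 2 fell, and the median was −0.71. Eya2, a transcriptional coactivator and phosphatase that binds homeobox proteins of the Six5 family, had log2 values of 0.82, 2.82 and 3.05 with MIG-Hhex and −0.69, −0.01 and 0.51 with MIG (log2 difference 2.29, SE 0.28, limma adjusted p = 0.00448). Its MIG-Hhex library of replicate WT3 was much lower than the other 2 but still above all MIG libraries. Eya1, a coactivator of the same kind, fell by 0.75 (SE 0.18, limma adjusted p = 0.0365) and Dach1, a corepressor of the network, by 0.66 (SE 0.15, limma adjusted p = 0.0276). With 1 added the log2 difference of Eya1 was −0.38.

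Lists around the remaining neighbours held few calls. Of 18 genes of cleavage and polyadenylation, the partners of symplekin, 0 passed, and all lay between −0.11 and 0.10. Of 13 measured Sm and LSm genes, the partners and relatives of Snrpd2, 0 passed, with a median of −0.06, while with the block Lsm8, of the nuclear LSm ring, was lower (log2 difference −0.19, limma adjusted p = 0.031). Of 4 measured Eml genes 0 passed, with a median of −0.11. Among 3 core subunits of SCF ligases, which F-box proteins join, 1 fell, Cul1 by 0.20 (SE 0.05, limma adjusted p = 0.0425). Of the 3 genes around Qpctl, Qpct, its secreted relative, fell, while Cd47, whose protein Qpctl modifies, and its receptor Sirpa did not pass. With the block all 3 were lower, Cd47 with a log2 difference of −0.19 (limma adjusted p = 0.0382) and Sirpa with −0.24 (limma adjusted p = 0.0418). Qpct had log2 values of −2.90, −3.28 and −3.40 with MIG-Hhex and 0.06, −1.44 and −1.26 with MIG (log2 difference −2.31, SE 0.37, limma adjusted p = 0.0106). It lies in the low range, and with 1 added its log2 difference was −0.51.

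**Figure D5:**
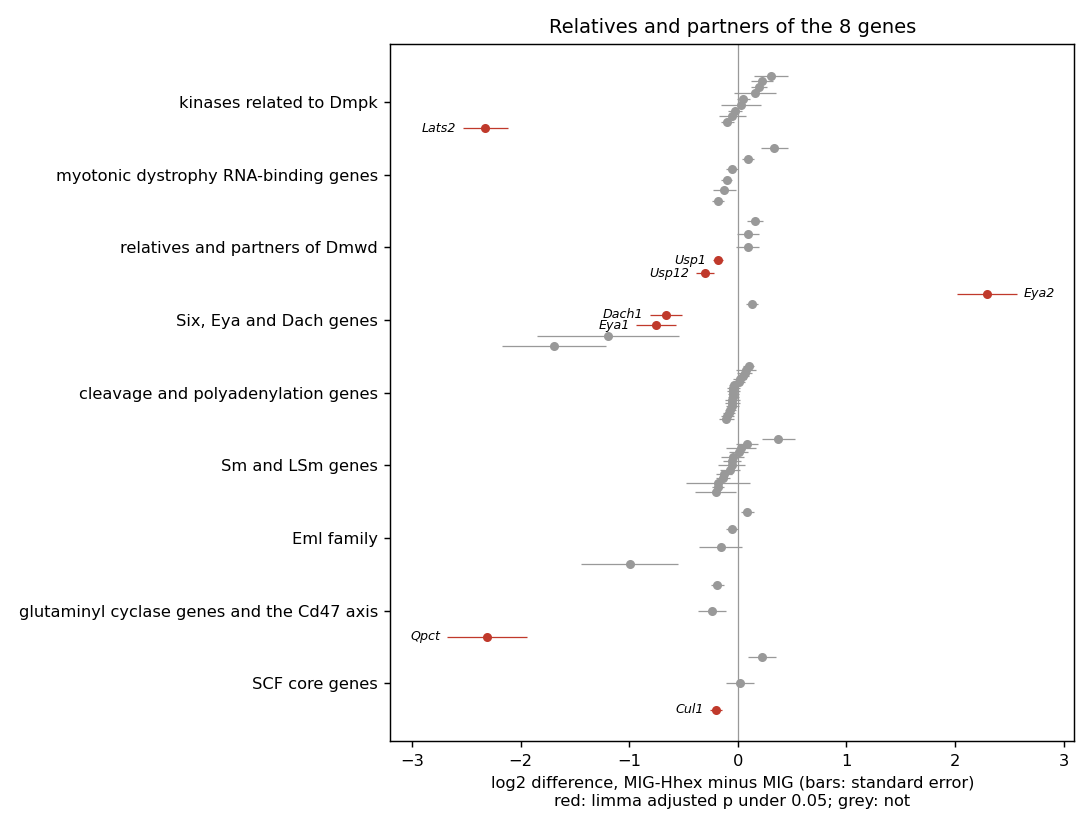
Log2 difference, MIG-Hhex minus MIG (horizontal axis), with standard errors, for the 68 measured relatives and partners of the 8 genes in 9 lists, red where the limma adjusted p was under 0.05. Eya2 at 2.29 is the single red point above 0, Lats2 and Qpct lie at −2.32 and −2.31, and most genes lie close to 0.

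Of these 8 called relatives, Lats2 and Eya2 kept their call in all 9 leave-one-out runs (highest limma adjusted p 0.0289 and 0.0472). Qpct lost its call without replicate WT3 (limma adjusted p = 0.0509), without the MIG library of replicate WT3 (0.0555) and without replicate WT703 (0.0704). Usp12 and Dach1 lost it in 6 of the 9, each run that left out replicate WT691 or replicate WT703 or a library of them (limma adjusted p up to 0.236 and 0.108), and Usp1, Eya1 and Cul1 in all 9 (up to 0.15, 0.168 and 0.157).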

How the data were processed

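Messenger RNA of 6 libraries was measured, 3 MIG-Hhex and 3 MIG, grouped by the vector label. The tools edgeR, limma, featureCounts and Subread and the genome build mm10 are listed per the submitters' processing notes. Their versions, the normalization and the offset are not stated there. The deposited table holds log2 values, 1 per gene and library, made by the authors. No counts were given, so depth is unknown and no counting interval can be stated.

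All 12161 genes were fitted with limma 3.58.1 in R 4.3.3, with terms for flow cell and vector and a mean-variance trend in eBayes, which left 3 residual degrees of freedom. Benjamini-Hochberg adjustment ran over the two-sided p-values of every gene, and a gene was called at 0.05. The fit was tested on simulated data. Differences are MIG-Hhex minus MIG. The labels do not tie replicates to animals beyond calling them biological, so p-values measure the spread between these libraries. Genes were matched by Entrez ID to RefSeq genes of GRCm38.p6, the build of mm10 (12052 matched), with strands for 11989; exon lengths are from GENCODE.

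The 8 genes and the lists were chosen with earlier results of these data known. Named beside the 8 are list genes past the threshold (at most 6 a list), window genes past it (at most 10), the nearest measured gene on either side and the 5 genes of most like pattern for Dmpk and for Dmwd. Genes of the lists named for their role alone were picked after their values were seen. Some listed genes are not reported here. Replicate numbers, which come from the sample titles, paired the libraries: deviations from the group means correlated by 0.742, 0.585 and 0.656 for replicates WT3, WT691 and WT703. Within flow cell C5LWPANXX, libraries of unlike replicate number correlated by 0.087 and 0.166. For WT3 the replicate and its flow cell cannot be told apart. The main fit had no term for the replicate number. Alternatives were the replicate number as a block, no flow cell term, left-out libraries, a single flow cell, eBayes without trend, quantile and median scaling, a filter on the mean, and 1 added before the log.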

Additional observations from a re-analysis of the deposited data

How the results depend on the processing

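The differences of the 8 genes moved by less than their spread between replicates under every alternative in which they could be fitted, except that of Dmpk with 1 added before the log (1.75). Dmpk has a mean below 0 and could not be fitted with the filter on the mean. Leaving out a library or replicate number gave log2 differences from 4.06 to 4.91 for Dmpk, 2.74 to 3.12 for Dmwd and 0.55 to 0.86 for Six5, while Fbxo46 ranged from 0.08 to 0.24 and Snrpd2 from −0.14 to 0.23. Counts over all genes, main values 1148 higher and 1036 lower, were 119 and 98 without the flow cell term, 698 and 519 within flow cell C5LWPANXX, 355 to 835 and 270 to 634 in the left-out runs, the fewest without replicate WT703, and every such run moved both counts by over 1.5 times except that without the MIG library of WT691, which moved only the lower one. There were 638 lower genes without the trend. Of the 20 window genes, 2 were higher without the flow cell term and 1 to 3 in the left-out runs. Within 100 kb 0 of 2 were higher, and within 1000 kb 8 of 30, or 26.7%, against 9.44% of all genes. The largest log2 difference of these 30 genes, which leave out the run around Dmpk, was 4.54, against 4.35 for Dmpk. For the related genes, the fit with the replicate block gave 2 higher and 11 lower, the fit without the flow cell term 0 and 1, flow cell C5LWPANXX alone 2 and 3, and the left-out runs 1 to 2 and 1 to 5. Without the trend 3 were lower and with quantile scaling 4. The block also made 3 LSK markers lower, where 1 was called without it. Over all genes it gave 1506 higher and 1473 lower, and in the window 4 and 0. Tandem pairs with both genes at 1 or more numbered 6 at most 2 kb apart and 24 at most 20 kb apart, and with both at 2 or more 1 and 7, against 12 and 3 at 5 kb, since the distance sets how many pairs there are. Apart from these, the cause was not tested. Depth is unknown, so how far it limits the low values of Dmpk in MIG libraries cannot be given.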
